A study of Mus musculus with 6 samples.

Results

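Proliferation genes are here 37 genes of the cell division cycle, chosen by name from their known roles with earlier results of these data known. They comprise 7 cyclins and cyclin-dependent kinases (CDKs) of G1 and the entry into S phase, and 2 CDK inhibitors. The others are 10 genes of DNA synthesis in S phase and 18 genes of G2 and mitosis. All 37 were found among the 36889 gene identifiers of the count tables, and all 37 passed the filter on low counts. The libraries were made from polyadenylated RNA of samples labelled as C57BL/6 mouse podocytes, the epithelial cells that form the filtration slits of the kidney glomerulus. The KO group (3 libraries: KO1, KO2, KO3) is labelled CD2BP2 Knockout and the WT group (3 libraries: WT1, WT2, WT3) is labelled Wildtype. CD2BP2 binds the splicing machinery through its GYF domain and belongs to the U5 particle of the spliceosome.

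The growth text of the labels describes a conditional allele with the 3′ loxP site behind exon 3 of CD2BP2, made in R1/E embryonic stem cells and carried in mice crossed to a FLPO deleter strain. The treatment text of the same labels, given for all 6 libraries, describes bone marrow macrophages of CD2BP2flox/flox MxCre+ mice and littermate controls, 6 to 10 weeks old and injected with 300 μg of poly (I:C). It does not describe podocytes, so the Cre line, age and treatment behind these libraries were not taken from it. The labels name no separate animals or cultures for the libraries of a group. P-values here therefore reflect the spread of these 6 libraries, part of which may be technical.

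Cd2bp2 stood at 48.4, 47.3 and 51.0 CPM in KO1, KO2 and KO3, against 61.0, 61.8 and 60.8 CPM in WT1, WT2 and WT3, so the targeted transcript was lower in each KO library but present in all of them. CPM are counts scaled to the normalized library size. The 8 podocyte markers, which define the labelled cell type, were detected in every library, with a summed level of 19180 to 21000 CPM in KO libraries and 21540 to 24300 CPM in WT libraries. Of these 8, 7 were lower in KO by the log2 fold change and 1 was higher, with a list median of -0.23. The KO and WT libraries did not overlap for 4 of the 8, against 28.9% of all genes tested. The sum of 12 loop, distal tubule and collecting duct markers was 1419 CPM in KO2 and 267 to 531 CPM in KO3 and KO1, against 180 to 334 CPM in WT libraries. All 12 had positive log2 fold changes of KO over WT, with a list median of 1.65. KO2 was the highest library for each of the 12, which it was for 4517 of 19742 genes tested. For 6 of the 12 the KO and WT libraries did not overlap, against 28.9% of all genes tested. Markers of other cells of the glomerulus were present too. The endothelial markers summed to 6711 to 7727 CPM over the libraries, and the mesangial and smooth muscle markers to 2662 to 3200 CPM. A level given here therefore need not be that of podocytes alone. Library depth was 186022084 to 255554573 part counts.

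Cells in G1 pass into S phase when cyclin D with CDK4 and then cyclin E with CDK2 phosphorylate the retinoblastoma protein and free E2F transcription factors. E2F proteins switch on genes of DNA synthesis, and later the MuvB complex with B-MYB and FOXM1 switches on genes of G2 and mitosis. Mature podocytes are known as cells that have left the cell cycle and hold CDK inhibitors, p57 (Cdkn1c) above all.

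None of the 37 genes passed the test for a difference between KO and WT libraries (edgeR quasi-likelihood test, Benjamini-Hochberg adjusted p under 0.05 over 19742 genes), where 3.37% of all genes tested did (1.62% higher and 1.76% lower in KO). At an unadjusted p under 0.05 there were 2 of 37, Cdkn1b and Ccne2, against 22.6% of all genes tested. The same 2 genes were the only members whose KO and WT libraries did not overlap, against 28.9% of all genes tested. DESeq2 called 1 of 37, Cdkn1b, where it called 9.44% of the genes it tested, and limma-voom called 0 of 37, where it called 2.49%. Of the 37 log2 fold changes 33 were negative (lower in KO) and 4 positive, and with WT3 left out 16 were negative and 21 positive. The member median was -0.29, beside 0.005 over all genes tested.

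**Figure D1:**
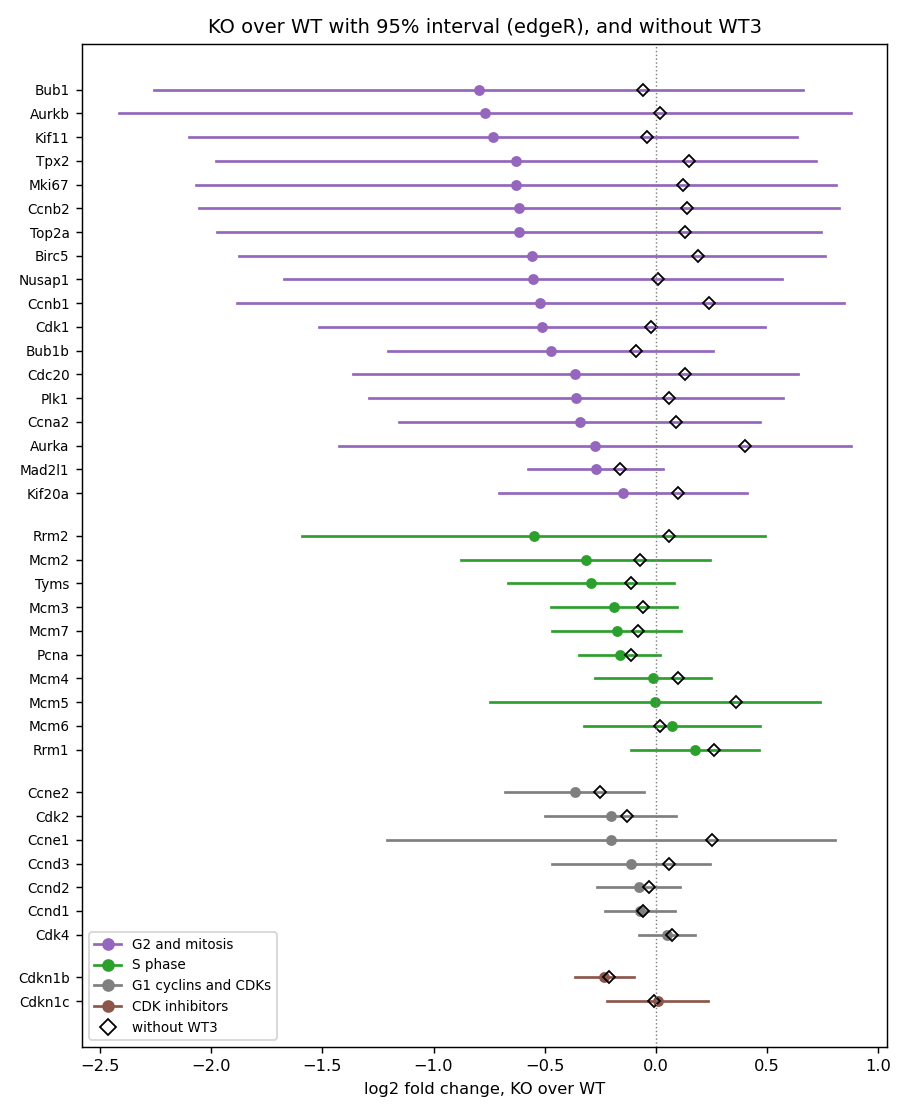
log2 fold change of KO over WT for each of the 37 genes, grouped by role, with its 95% interval from edgeR over all 6 libraries (filled points and lines) and the value with WT3 left out (open diamonds). All 18 genes of G2 and mitosis lie left of 0 with all libraries, with intervals that include 0, and 13 of the 18 lie right of 0 without WT3.

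The 18 genes of G2 and mitosis had the widest spread between libraries of the 4 role groups, and it ran within each group rather than between KO and WT. WT3 was the highest of the 6 libraries for 18 of 18 of these genes, which it was for 17.2% of all genes tested. KO2 was the lowest for 15 of 18, against 22.6% of all genes tested. Their log2 level relative to the WT mean had a median of -0.58 in KO1, -1.23 in KO2 and -0.02 in KO3, and of -0.96 in WT1, -0.34 in WT2 and 0.80 in WT3. KO1 and KO3 thus lay between WT1 and WT3, while KO2 was below all others. In bulk RNA, fewer cells of a type and less RNA per cell cannot be told apart.

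Mki67 encodes Ki-67, the coat protein of mitotic chromosomes that is used as a general marker of dividing cells (ENSMUSG00000031004, chromosome 7, 142881471 to 142908062 in NCBIM37, minus strand). It stood at 22.5, 10.8 and 35.0 CPM in KO1, KO2 and KO3, against 15.8, 26.0 and 63.9 CPM in WT1, WT2 and WT3. WT3 was the highest and KO2 the lowest, and the other 4 libraries of both groups were interleaved. KO over WT, the log2 fold change was -0.63 with an SE of 0.60 (95% interval -2.07 to 0.81, edgeR adjusted p = 0.584), and it was 0.12 with WT3 left out.

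Top2a encodes topoisomerase IIα, which untangles sister chromatids (chromosome 11, 98854257 to 98885503). Its identifier in the files is an aggregate with the small gene Gm23451. It stood at 23.3, 11.6 and 32.7 CPM in KO1, KO2 and KO3, against 16.1, 25.1 and 62.1 CPM in WT1, WT2 and WT3, which is the order of libraries seen for Mki67. Its log2 fold change of -0.61 had an SE of 0.57 (edgeR adjusted p = 0.569).

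Cdk1 encodes the kinase that drives entry into mitosis with the B cyclins (chromosome 10, 68799383 to 68815686). It stood at 6.08, 5.71 and 10.8 CPM in KO1, KO2 and KO3, against 6.11, 9.11 and 17.0 CPM in WT1, WT2 and WT3. KO1, KO2 and WT1 lay close together at the low end, and KO3 lay between WT2 and WT3. Its partners Ccnb1 and Ccnb2 were at 2.48 ± 1.16 and 2.86 ± 1.55 CPM in KO libraries, against 3.55 ± 2.55 and 4.38 ± 3.14 CPM in WT libraries (SD, n = 3 each).

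The genes of mitosis with the smallest p were 2 genes of the spindle checkpoint, which holds chromosome separation until each kinetochore is attached. Bub1b, which encodes the checkpoint kinase BubR1, stood at 6.97, 6.39 and 8.84 CPM in KO1, KO2 and KO3, against 6.50, 9.28 and 15.0 CPM in WT1, WT2 and WT3. Mad2l1, which encodes the checkpoint protein MAD2, stood at 6.92, 7.06 and 7.46 CPM in KO1, KO2 and KO3, against 8.68, 7.29 and 9.89 CPM in WT1, WT2 and WT3. For Mad2l1 the groups overlapped by WT2 alone, and its libraries differed by no more than 1.43-fold. Its log2 fold change was -0.27 with an SE of 0.13 (edgeR adjusted p = 0.264), and that of Bub1b was -0.47 (SE 0.31, edgeR adjusted p = 0.409).

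The other members of this group encode mitotic kinases (Plk1, Aurka, Aurkb, Bub1), cyclin A (Ccna2), the anaphase activator Cdc20, survivin (Birc5), the motor proteins Kif11 and Kif20a and the spindle proteins Tpx2 and Nusap1. Their log2 fold changes ran from -0.80 for Bub1 to -0.15 for Kif20a, which is also the range of all 18. The adjusted p of the 18 ran from 0.264 to 0.776 with edgeR, and the median SE of their log2 fold changes was 0.51, beside 0.13 over all genes tested. The widest gap was that of Aurkb, whose highest library (WT3, 8.22 CPM) was 7.95 times its lowest (KO2, 1.03 CPM).

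**Figure D2:**
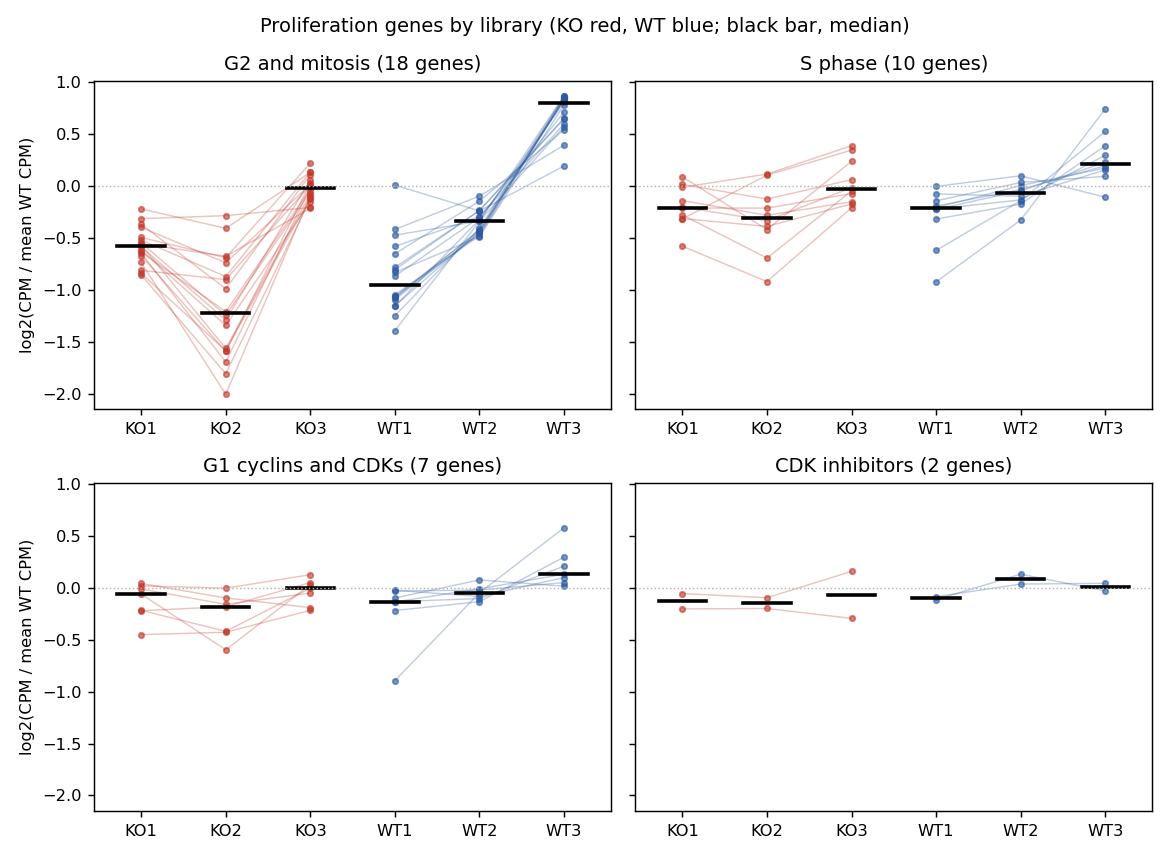
log2 of the CPM of each gene over its mean CPM in WT libraries, with 1 point per gene and library, lines that join the libraries of a group, and black bars for the median of each role group. The medians of G2 and mitosis run from -1.23 in KO2 to 0.80 in WT3, and those of G1 cyclins and CDKs stay between -0.18 and 0.13.

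Within WT libraries the SD of log2(CPM + 0.1) had a median of 0.91 over the 18 genes of G2 and mitosis, and within KO libraries it was 0.59. Over all genes tested the medians were 0.13 in KO and 0.12 in WT libraries. Without WT3 the SD of the 2 remaining WT libraries had a median of 0.40 over the 18 genes. The WT SD was over 0.5 for 16 of 18, against 6.47% of all genes tested. KO3 over KO2 had a median ratio of 2.31 and WT3 over WT1 one of 3.51, and WT3 was at least 2-fold above WT1 for 16 of 18, against 4.87% of all genes tested. The order KO3, KO1, KO2 in one group and WT3, WT2, WT1 in the other, from high to low, held together for 17 of 18, Mad2l1 being the exception, against 6.39% of all genes tested. All 6 libraries stood in the order WT3, KO3, WT2, KO1, WT1, KO2 for 13 of 18, against 0.704% of all genes tested. These shares describe the 6 libraries and are not a test.

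**Figure D3:**
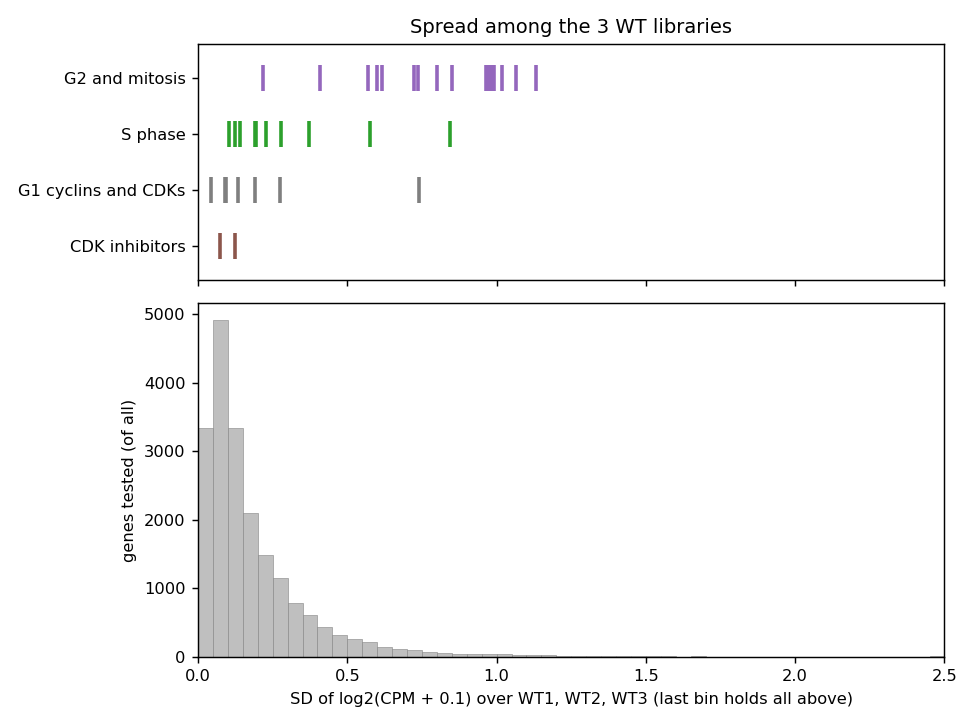
SD of log2(CPM + 0.1) over WT1, WT2 and WT3, with 1 tick per gene in each role group (top) and a histogram of all 19742 genes tested (bottom). The ticks of G2 and mitosis have a median of 0.91, and the histogram has its bulk near the median of 0.12.

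The negative fold changes of this group rest on WT3. With WT3 left out, the median log2 fold change of the 18 genes was 0.10 instead of -0.54, with 13 positive and 5 negative. With any of the other 5 libraries left out, all 18 stayed negative, and the median was -0.91 without KO3, -0.86 without WT1, -0.70 without WT2, -0.50 without KO1 and -0.31 without KO2. No member passed the edgeR test with any 1 library left out.

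The high level in WT3 was seen across the exonic parts of these transcripts. Of 265 exonic parts of the 18 genes with at least 10 counts in each library, WT3 was highest in 261 (98.5%), against 18.5% of 219711 such parts of all genes. For Mki67 it was 13 of 13 parts, with WT3 over WT1 from 2.40 to 5.10, and for Top2a 45 of 45 parts, with 2.97 to 5.56. No exonic part of any member passed the test for exon usage (602 parts of 37 genes, diffSpliceDGE in edgeR), nor was any at an unadjusted p under 0.05, where 0.0627% and 1.16% of all parts tested were.

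No strand was taken into account, so in parts where a neighbour lies on the opposite strand its reads cannot be told apart from a member's own. The members affected most were Ccne2 with 68.3% of its counts in parts that overlap Ints8, Ccnd1 with 64.0% (LTO1), Kif20a with 63.1% (Cdc23), Ccna2 with 57.1% (Exosc9) and Ccnd3 with 45.5% (Bysl). Over their own parts alone, WT3 stood further above WT1 for the 2 mitosis genes. The ratio was 2.99 for Kif20a, against 1.76 over all of its parts, and 3.96 for Ccna2, against 2.28 over all of its parts. Own-part levels of Ccna2 were 4.17, 2.40 and 7.54 CPM in KO1, KO2 and KO3, against 3.36, 5.29 and 13.3 CPM in WT1, WT2 and WT3, which puts the libraries in the order of Mki67. These own-part values were singled out after they were seen.

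**Figure D4:**
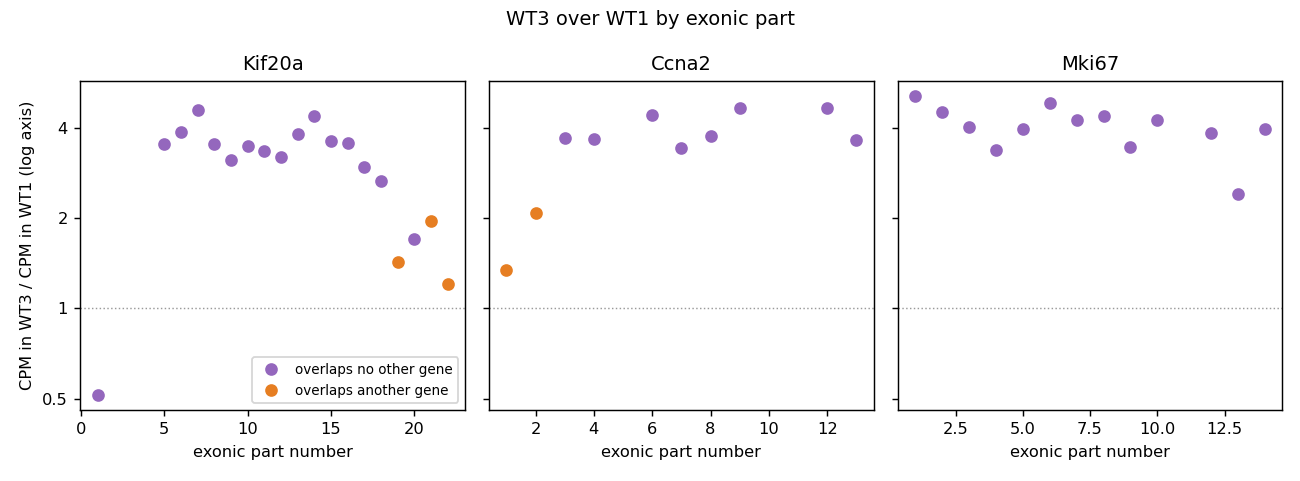
CPM in WT3 over CPM in WT1 (log axis) for each exonic part with at least 10 counts in each library, by part number along the gene, for Kif20a, Ccna2 and Mki67. Parts that overlap a gene on the opposite strand (orange) lie near 1 to 2, most other parts of Kif20a and Ccna2 (purple) near 3 to 5, and 1 part of Kif20a lies at 0.52.

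Promoter sequences are given for members of this group because 17 of the 18 genes, all but Mad2l1, shared the order of libraries within both groups, and for S phase members beside them. RefSeq promoters of the build GRCm38.p6 were matched by symbol for 28 members (30 entries), and the 250 bases before each start were searched on both strands for the cell cycle homology region (CHR, the letters TTTGAA or their variant TTCGAA, a binding element of MuvB complexes), the CCAAT box (bound by NF-Y) and E2F sites (TTCCCGC, the form TTCGCGC, also the form TTGCCGC and lastly the form TTGGCGC). CHR letters stood in 7 of 14 promoters of G2 and mitosis (50.0%), in 2 of 10 of S phase (20.0%) and in 0 of 5 of G1 cyclins and CDKs, against 17.1% of all 32851 promoters. CCAAT letters stood in 78.6% and 90.0% of the first 2 groups and in 2 of 5 of the third, against 33.8% of all. E2F letters stood in 21.4%, 60.0% and 20.0%, against 7.9% of all. Letters of both CHR and CCAAT stood in 50.0% of the promoters of G2 and mitosis and in 6.0% of all. A match is a run of letters, not a shown binding site, and E2F matches can overlap each other and a CCAAT box.

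Only 1 CHR match per gene is shown here, although the 250 bases hold 4 for Top2a and 2 each for Mki67 and Cdk1. For Cdk1 the match shown begins 71 bases before the start, and the other begins 15 bases before it. These 30-base windows show the CHR letters in capitals, read 5′ to 3′ on the strand of the gene (for Kif11 the letters lie on the other strand), for 6 of the 7 mitosis promoters that hold them and for Mcm2 of S phase. They lie at chr7:135716460-135716489 (Mki67), chr11:99024312-99024341 (Top2a), chr10:69352966-69352995 (Cdk1) and chr9:70421704-70421733 (Ccnb2), all on the minus strand, at chr2:118598011-118598040 (Bub1b) and chr19:37376351-37376380 (Kif11) on the plus strand, and at chr6:88898833-88898862 (Mcm2) on the minus strand.
Mki67: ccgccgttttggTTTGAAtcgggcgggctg
Top2a: ctaattggtttaTTCGAAaaggcggtcttt
Cdk1: ctgattggctccTTTGAAcgtctacgtgca
Ccnb2: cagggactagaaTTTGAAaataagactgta
Bub1b: tctctccctgggTTCGAAggcttgtcttag
Kif11: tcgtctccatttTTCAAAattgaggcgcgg
Mcm2: agggctcagcctTTTGAAagctgtgggcgg

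Whole stretches of 250 bases before the start follow for Cdk1 (chr10:69352913-69353162, minus strand) and Mcm6 (chr1:128359706-128359955, minus strand), with CHR, CCAAT and E2F letters in capitals on either strand. They are shown as 1 promoter with letters of all 3 motifs and 1 with CCAAT and E2F letters but no CHR letters. The Cdk1 stretch holds 2 CHR, 3 CCAAT and 2 E2F matches, and the Mcm6 stretch holds 0 CHR, 2 CCAAT and 4 E2F matches, the last in overlapping pairs. Birc5 and Nusap1 had the full order of 6 libraries with 0 matches of any motif, and Bub1, Ccnb1 and Plk1 had it with 0 CHR matches. Cdk1 and Bub1b held letters of both CHR and CCAAT without the full order. Mki67, Top2a, Ccnb2, Cdc20 and Kif11 held both and had it. Mad2l1, the exception to the order within both groups, also had 0 matches of any motif. Bases after the start were not searched, and a link between these letters and the profiles was not tested.
Cdk1: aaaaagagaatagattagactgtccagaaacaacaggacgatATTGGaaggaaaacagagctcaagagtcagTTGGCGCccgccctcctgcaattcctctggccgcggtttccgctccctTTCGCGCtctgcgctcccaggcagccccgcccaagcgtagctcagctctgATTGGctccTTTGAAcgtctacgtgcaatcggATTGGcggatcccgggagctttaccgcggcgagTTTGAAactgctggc
Mcm6: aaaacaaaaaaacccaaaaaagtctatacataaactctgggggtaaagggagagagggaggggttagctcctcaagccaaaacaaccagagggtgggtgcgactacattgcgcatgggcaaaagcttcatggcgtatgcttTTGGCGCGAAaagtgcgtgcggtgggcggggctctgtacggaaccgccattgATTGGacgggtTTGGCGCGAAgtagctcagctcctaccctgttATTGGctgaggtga

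The 10 genes of S phase spread less than those of mitosis. The SD of log2(CPM + 0.1) had a median of 0.18 within KO libraries and 0.21 within WT libraries. Log2 levels relative to the WT mean had a median of -0.21, -0.31 and -0.03 in KO1, KO2 and KO3, and of -0.21, -0.07 and 0.21 in WT1, WT2 and WT3. WT3 was highest for 8 of 10, all but Mcm6 and Rrm1. The median log2 fold change was -0.17 with 8 negative and 2 positive, and -0.02 with 5 of each sign when WT3 was left out.

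Mcm2 to Mcm7 encode the 6 subunits of the replicative helicase, which is loaded on DNA as 1 ring. Mcm2 (chromosome 6, 88833469 to 88848774) stood at 14.1, 10.5 and 16.5 CPM in KO1, KO2 and KO3, against 13.7, 15.1 and 22.4 CPM in WT1, WT2 and WT3, and its groups overlapped. For Mcm2 the log2 fold change was -0.32 (SE 0.23, edgeR adjusted p = 0.472). The 6 subunits did not share a profile. Mcm5 in WT3 stood at 2.23 times its WT1 level, while Mcm6 was 0.93 times its WT1 level in WT3 and had its highest library in KO3 (29.3 CPM) and its lowest in KO1 (18.5 CPM). Mcm3, Mcm4 and Mcm7 in WT3 stood at 1.37, 1.31 and 1.30 times their WT1 level. Mcm7 is counted as an aggregate with the microRNA genes Mir93 and Mir25, which lie within it.

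Pcna encodes the sliding clamp of DNA polymerases, which also serves in DNA repair (chromosome 2, 132074898 to 132079050). It stood at 146.4, 146.3 and 161.2 CPM in KO1, KO2 and KO3, against 153.6, 173.7 and 180.9 CPM in WT1, WT2 and WT3. Only KO3 and WT1 overlapped between the groups, and the log2 fold change was -0.16 with an SE of 0.08 (edgeR adjusted p = 0.265).

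Tyms encodes thymidylate synthase, the enzyme that makes dTMP. It stood at 7.36, 6.98 and 8.13 CPM in KO1, KO2 and KO3, against 7.85, 8.35 and 11.3 CPM in WT1, WT2 and WT3, with KO3 above WT1. With an SE of 0.16, its log2 fold change was -0.29 (edgeR adjusted p = 0.323).

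Rrm1 and Rrm2 encode the large and the small subunit of ribonucleotide reductase, which makes deoxyribonucleotides. Rrm2, the subunit that is made in S phase and destroyed after it, stood at 4.46, 3.50 and 5.79 CPM in KO1, KO2 and KO3, against 3.49, 5.33 and 11.3 CPM in WT1, WT2 and WT3. WT3 was 3.24 times WT1 for Rrm2 and 1.18 times WT1 for Rrm1. Rrm1 stood at 45.6 ± 6.61 CPM in KO libraries and 40.4 ± 4.05 CPM in WT libraries (SD, n = 3 each), with the largest positive fold change among the members (log2 0.18, SE 0.12, edgeR adjusted p = 0.439). Rrm2 was chosen for values per library after they were seen.

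The 7 genes of G1 showed the narrowest profiles of the 3 groups that drive the cycle. Their SD of log2(CPM + 0.1) had a median of 0.13 within KO libraries and 0.13 within WT libraries, beside 0.13 and 0.12 over all genes tested. Ccnd1, the D cyclin with the highest level per length here (chromosome 7, 152115836 to 152125774), stood at 216.1, 195.0 and 210.4 CPM in KO1, KO2 and KO3, against 203.5, 229.6 and 220.1 CPM in WT1, WT2 and WT3. The groups overlapped and the log2 fold change was -0.07 with an SE of 0.07 (edgeR adjusted p = 0.564). Ccnd2, Ccnd3 and their kinase Cdk4 had log2 fold changes of -0.08, -0.11 and 0.05, with edgeR adjusted p of 0.600, 0.702 and 0.633.

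The E cyclins act with CDK2 at the start of S phase. Ccne2 (chromosome 4, 11118498 to 11131926) stood at 6.08, 6.18 and 7.17 CPM in KO1, KO2 and KO3, against 7.60, 7.76 and 9.67 CPM in WT1, WT2 and WT3, so that every KO library was below every WT library. Its log2 fold change was -0.37 with an SE of 0.13 (edgeR unadjusted p = 0.0285, adjusted p = 0.171). Over the parts that do not overlap Ints8 the levels were 1.73, 1.60 and 2.56 CPM in KO libraries, against 2.18, 2.49 and 3.50 CPM in WT libraries, and the groups overlapped, with KO3 above WT1 and WT2. Cdk2 stood at 19.4, 16.8 and 22.5 CPM in KO1, KO2 and KO3, against 20.5, 22.4 and 24.7 CPM in WT1, WT2 and WT3, and its groups overlapped (log2 fold change -0.20, SE 0.12, edgeR adjusted p = 0.379). Ccne1 was the lowest member per length, with 95 to 364 counts per library, and its WT3 level was 3.13 times its WT1 level.

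Cdkn1b encodes p27, an inhibitor of cyclin-CDK complexes that is high in resting cells (ENSMUSG00000003031, chromosome 6, 134870419 to 134875531). It stood at 60.8, 61.0 and 57.1 CPM in KO1, KO2 and KO3, against 66.0, 71.8 and 72.2 CPM in WT1, WT2 and WT3. All 3 KO libraries were below all 3 WT libraries. The log2 fold change was -0.23 with an SE of 0.06 (95% interval -0.36 to -0.10, edgeR unadjusted p = 0.00471, adjusted p = 0.0777). The adjusted p was 0.0207 with DESeq2, and over 14 alternatives it ran from 0.0207 to 0.278, and the fold change was negative in all 14.

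Cdkn1c, which encodes p57, was the member with the highest level per length in both groups (ENSMUSG00000037664, chromosome 7, 150644255 to 150646955). It stood at 686.3, 667.6 and 796.0 CPM in KO1, KO2 and KO3, against 658.7, 781.2 and 698.7 CPM in WT1, WT2 and WT3, and the groups were interleaved. The log2 fold change was 0.01 with a 95% interval of -0.22 to 0.24 (edgeR adjusted p = 0.973).

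Per length, the 37 genes spanned about 3 orders of magnitude on the scale of CPM per kilobase of annotated exonic parts. Cdkn1c averaged 371.1 CPM per kilobase in KO libraries and 369.2 in WT libraries. Pcna followed with 63.1 in KO and 70.6 in WT libraries, and Ccnd1 with 54.0 in KO and 56.8 in WT libraries. Genes of G2 and mitosis were low in both groups, with 3.61 in KO and 3.99 in WT libraries for Kif20a, and 2.26 in KO and 3.50 in WT libraries for Mki67. Ccne1 was the lowest with 0.339 in KO and 0.389 in WT libraries. The level per length of Ccnd1, Ccnd3, Ccne2, Ccna2 and Kif20a may include reads of the overlapping genes named above. Over own parts alone the WT mean was higher for Ccnd1 (78.99, against 56.78 over all parts) and Ccnd3 (37.75, against 36.08). It was lower for Ccne2 (1.63, against 2.39), Ccna2 (3.05, against 4.49) and Kif20a (2.34, against 3.99).

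**Figure D5:**
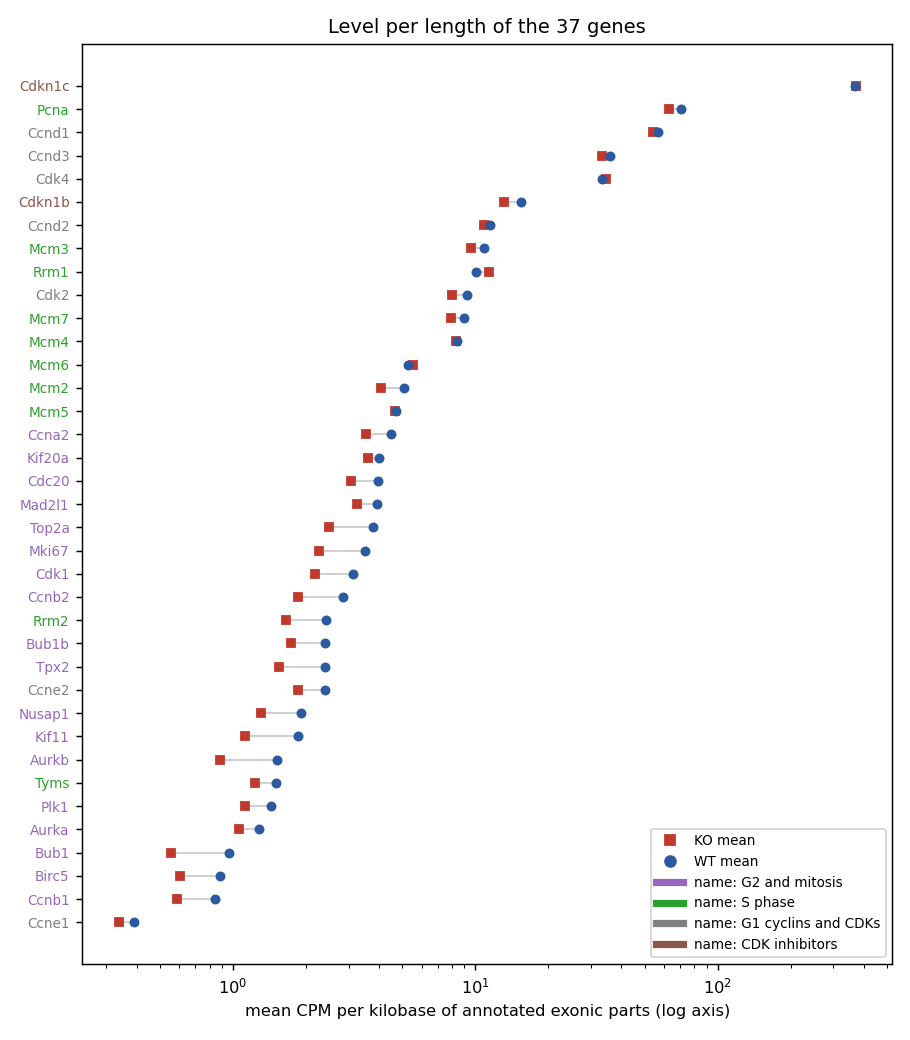
Mean CPM per kilobase of annotated exonic parts (log axis) in KO libraries (red squares) and WT libraries (blue circles), ordered by the WT mean, with gene names coloured by role. Cdkn1c stands at 371.1 in KO and 369.2 in WT libraries, and genes of G2 and mitosis fill the lower part of the scale.

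Other genes of the cell cycle were taken as 3 lists by function. Of 38 further genes of DNA synthesis, 44 further genes of mitosis and 38 controllers (retinoblastoma and E2F proteins, MuvB subunits, other inhibitors and cyclins; 38 tested of 40 listed), 0 passed the edgeR test in either direction, and 3, 1 and 6 were at an unadjusted p under 0.05. Over all genes tested the shares were 3.37% past the edgeR test and 22.6% at an unadjusted p under 0.05. DESeq2 called 6 of these genes, where it called 9.44% of the genes it tested. The median log2 fold changes were -0.13, -0.39 and -0.09. The further mitosis genes showed the profile of the member list. WT3 was highest for 42 of 44, the order of both groups given above held for 41 of 44, and WT3 over WT1 had a median of 3.20. Among controllers WT3 was highest for 16 of 38, and the median WT3 over WT1 was 1.13.

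Cdkn1a encodes p21, the CDK inhibitor that is a target of p53, and was singled out after its values were seen. It stood at 35.3, 34.1 and 34.8 CPM in KO1, KO2 and KO3, against 47.6, 78.2 and 55.8 CPM in WT1, WT2 and WT3, so every KO library was below every WT library. The log2 fold change was -0.80 with an SE of 0.17 (edgeR adjusted p = 0.0638), and the adjusted p ran from 0.000224 with DESeq2, the only one of 14 alternatives in which it passed, to 0.167. Foxm1, a transcription factor of mitosis genes and likewise chosen after its values were seen, stood at 8.36, 5.91 and 7.77 CPM in KO1, KO2 and KO3, against 8.30, 8.56 and 13.7 CPM in WT1, WT2 and WT3, and was highest in WT3 (log2 fold change -0.47, SE 0.23, edgeR adjusted p = 0.285).

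Markers of other cells also differed between libraries. The summed level of erythroid markers (3 of 5 genes found) was 14.5, 23.9 and 59.1 CPM in KO1, KO2 and KO3, against 5.78, 14.2 and 108.8 CPM in WT1, WT2 and WT3. It is mostly Hba-a1 and Hba-a2, whose levels were nearly equal (54.0 and 53.3 CPM in WT3). Alas2 was at 0.64, 0.74 and 1.10 CPM in KO1, KO2 and KO3, against 0.76, 0.63 and 1.60 CPM in WT1, WT2 and WT3. WT3 and KO3, the highest libraries of their groups for mitosis genes, were the highest for this sum too, while KO1 and KO2 stood in the opposite order. Lymphocyte markers (13 of 13 found) summed to 43.0 to 77.3 CPM in KO libraries and 26.5 to 50.8 CPM in WT libraries, with WT3 highest among WT and KO1 among KO libraries. Of these 13, 12 had positive log2 fold changes, with a list median of 0.85. The groups did not overlap for 3 of the 13, against 28.9% of all genes tested. Of 15 macrophage and myeloid markers (15 of 15 found), 14 had positive log2 fold changes, with a list median of 0.80, and the groups did not overlap for 8, against 28.9% of all genes tested. Lyz2, the macrophage lysozyme, averaged 89.5 CPM in KO and 42.5 CPM in WT libraries, and WT2 was the lowest library for 12 of the 15. Their sum of 406.8 to 465.5 CPM in KO and 361.5 to 437.9 CPM in WT libraries is mostly Mrc1, the 1 member with a negative fold change, at 231.2 CPM in KO and 269.4 CPM in WT libraries. Endothelial markers (10 of 10) summed to 6711 to 7137 CPM in KO and 7323 to 7727 CPM in WT libraries, WT3 being the highest. Within that list Vwf, of the endothelium of larger vessels, stood at 3.95, 2.86 and 6.55 CPM in KO1, KO2 and KO3, against 4.04, 4.89 and 25.2 CPM in WT1, WT2 and WT3. Its order of libraries was that of Cdk1. Vwf was the only 1 of the 10 endothelial markers with WT3 at least 2-fold above WT1, and the list median of that ratio was 1.17. Mesangial and smooth muscle markers (9 of 9) summed to 2662 to 3200 CPM in KO and 2827 to 3109 CPM in WT libraries. Over the 9 markers WT3 over WT1 had a median of 1.06, and WT3 was the highest library for 4 and the lowest for 2. Within that list 2 smooth muscle genes also stood high in WT3. Tagln, also of smooth muscle, did not, at 106.2, 81.3 and 104.1 CPM in WT1, WT2 and WT3. Myh11 was at 58.9, 65.9 and 55.7 CPM in KO1, KO2 and KO3, against 41.6, 38.2 and 137.2 CPM in WT1, WT2 and WT3. Acta2 was at 78.1, 98.1 and 95.4 CPM in KO1, KO2 and KO3, against 73.2, 59.6 and 145.0 CPM in WT1, WT2 and WT3. Of 7 parietal epithelium markers (7 of 7 found), 6 had positive log2 fold changes, with a list median of 0.70. The groups did not overlap for 5 of the 7, against 28.9% of all genes tested. Their sum of 349.8 to 396.1 CPM in KO and 390.8 to 427.1 CPM in WT libraries is mostly Cd24a, the 1 member with a negative fold change, at 263.3 CPM in KO and 343.1 CPM in WT libraries. Proximal tubule markers (10 of 10) summed to 825.6 to 1240 CPM in KO libraries and 479.3 to 982.1 CPM in WT libraries. For this sum WT3 was highest among WT and KO2 among KO libraries. All 10 had positive log2 fold changes, with a list median of 0.53. The groups did not overlap for 4 of the 10, against 28.9% of all genes tested. Kap alone made 394.4 CPM of the WT3 sum, against 91.0 and 45.3 CPM in WT1 and WT2. The list median of WT3 over WT1 was 1.01, and WT3 was the lowest of the 6 libraries for 4 of the 10. The edgeR test called 4 myeloid, 1 parietal, 2 proximal tubule and 1 loop, distal tubule and collecting duct markers, all higher in KO. It called 1 podocyte marker lower in KO, Nphs1 (log2 fold change -0.53, edgeR adjusted p = 0.035). Lymphocyte, endothelial, mesangial and smooth muscle, and erythroid markers had 0 calls. Over all genes tested 1.62% were called higher and 1.76% lower in KO. The markers named here were singled out after their values were seen. The part of these cells in the levels of the 37 genes was not tested.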

How the data were processed

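RNA-seq of 6 libraries (3 KO, 3 WT) was used. The authors' deposited tables give, for each of 368092 exonic parts, a raw read count, the bases covered, the part length and the covered fraction, on Ensembl 67 and NCBIM37 per the file headers. TopHat 1.4.1 is listed in the submitters' processing notes, with the human build GRCh37, which goes against those headers. For the counter and strand no source used here gives a setting, and counts were treated as unstranded.

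Part counts were added up per gene, so a read over several parts may enter more than once. Symbols came from the reference annotation of another build (31300 of 35981 single identifiers, and 908 aggregates of overlapping genes). The gene test was edgeR 4.0.16 (R 4.3.3; filterByExpr, TMM, quasi-likelihood, no covariate), called at a Benjamini-Hochberg adjusted p under 0.05. CPM use the TMM-scaled library size over tested genes, and SDs of log2 values are of log2(CPM + 0.1). For exon usage, diffSpliceDGE of edgeR was run. Chi-square per gene between replicate libraries was 73.7 to 220, so none was counted as a duplicate.

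On simulated counts with the real means (19742 genes), edgeR recovered 20.9%, 35.8% and 84.8% of genes changed 1.5-fold, 2-fold and 4-fold, and 2 of 96 calls were false. The changed genes were drawn from all genes tested, with a median SE of 0.13 in the real data. Recovery was not measured for the mitosis members, whose median SE was 0.51. In the exon test (236061 parts) recovery was 17.9%, 49.3% and 86.4%, with 29 of 138 calls in unchanged genes.

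The gene test was repeated with DESeq2 1.42.0, limma-voom (limma 3.58.1), RLE size factors, the replicate number as a block, no filter, a minimum of 1 CPM in 3 libraries, the longest part alone, parts that overlap no other gene, and leaving out each library. The exon test was repeated with diffSplice on voom weights, a minimum of 10 counts in 3 libraries, the block and each library left out. The members and lists were chosen with earlier results of these data known. Values in every library were given for members past the test, for Mki67, Top2a, Cdk1, Mcm2, Pcna, Ccnd1, Cdkn1b and Cdkn1c, and for the 2 members with the smallest p in each role. Promoters are from RefSeq (GRCm38.p6), and their coordinates are not those of the count tables. One further erythroid item is not reported here.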

Additional observations from a re-analysis of the deposited data

How the results depend on the processing

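Of 516 member fold changes under alternatives, 483 kept their sign and side of the threshold, 32 took the other sign (19 of them without WT3) and 1 passed newly, Cdkn1b with DESeq2. Members called by edgeR were 0 and by DESeq2 1, and pathway genes called were 0 and 6. All genes called were 666, against 82 with the replicate block, 2541 with DESeq2, 424 with the longest part alone, and 31 to 254 with 1 library left out. The replicate block changed no member's call. Deviations of log2 CPM from the group mean correlated at 0.107, -0.06 and 0.158 between same-numbered KO and WT libraries. For the other KO and WT pairs the values ran from -0.203 to 0.107, so the numbers were not taken as pairs.

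The WT spread (median SD of log2 values, 0.91 for G2 and mitosis, 0.21 for S phase, 0.13 for G1 and 0.10 for inhibitors) ran from 0.40 (without WT3) to 1.24 (without WT2), from 0.12 (without WT3) to 0.30 (without WT2), from 0.06 (without WT3) to 0.19 (without WT2), and from 0.06 (without WT1) to 0.13 (without WT3) with 1 WT library left out. Log2 fold changes of other sign than the one reported were 0.00 for Mcm4 and 0.01 for Mcm5 with at least 1 CPM in 3 libraries, 0.04 for Mcm5 with the block, 0.03 for Mcm5 with limma-voom, and with the longest part alone 0.05 for Mcm4, 0.57 for Mcm5, -0.01 for Rrm1 and 0.03 for Kif20a. The cause was not tested. With 1 library left out, log2 fold changes that crossed 0 had these ranges: Aurka -0.62 to 0.4, Aurkb -1.29 to 0.02, Birc5 -0.91 to 0.19, Ccna2 -0.57 to 0.09, Ccnb1 -0.94 to 0.24, Ccnb2 -1.1 to 0.14, Ccnd3 -0.21 to 0.06, Ccne1 -0.53 to 0.25, Cdc20 -0.7 to 0.13, Cdkn1c -0.08 to 0.08, Kif20a -0.32 to 0.1, Mcm4 -0.1 to 0.1, Mcm5 -0.24 to 0.36, Mcm6 -0.09 to 0.23, Mki67 -1.09 to 0.12, Nusap1 -0.92 to 0.01, Plk1 -0.68 to 0.06, Rrm2 -0.86 to 0.06, Top2a -0.99 to 0.13, Tpx2 -1.0 to 0.15. Bub1 and Top2a had no value with the longest part alone. The spread between libraries of 1 group, which gave the mitosis genes a median SE of 0.51, limits the differences between KO and WT that could be detected.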
